A study of Homo sapiens with 10 samples.

Results

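When mesenchymal prostate cancer cells were given OVOL1 or OVOL2, many genes of the mesenchymal state were at a lower level, and others were not. Here 23 genes that stayed close to their PC3-EMT14 level with both factors are described, out of 23170 gene entries measured by RNA-seq. They were chosen by measured values: a level of at least 2 FPKM (fragment counts scaled to transcript length and to the size of the library) in the mesenchymal PC3-EMT14 cells, a ratio of PC3-Epi to PC3-EMT14 of at most 0.25, and ratios of both OVOL lines to PC3-EMT14 between 0.8 and 1/0.8. Each ratio was taken after adding 0.1 FPKM to both values. The low level in PC3-Epi and the near-equal level in the OVOL lines are therefore what selected the genes, and are given as a description with no test.

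All 10 samples were lines of PC3, which was established from human prostate cancer. PC3-Epi (n = 2) was a stable epithelial line that carried a luciferase reporter. PC3-EMT14 (n = 3) was a mesenchymal population isolated after PC3-Epi had been grown with IL4-treated M2 macrophages. PC3-EMT14-OVOL1 (n = 3) and PC3-EMT14-OVOL2 (n = 2) were PC3-EMT14 cells carrying a lentivirus that overexpressed the named factor, OVOL2 with a V5 tag. All 4 groups carry the luciferase vector, each stands for 1 derived population, and the labels of the PC3-EMT14 control name no empty vector. The deposited tables held 1 pooled FPKM value per line and no value per sample, so no replicate spread, standard deviation or test could be given for any number below. The depth of the libraries is not known from these files. The 3 ratios of a gene share the same PC3-EMT14 estimate, since PC3-EMT14 in the OVOL1 and OVOL2 tables equalled that in the PC3-Epi table times a constant (medians 0.979 and 0.969), so they are not independent of each other.

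Epithelial to mesenchymal transition (EMT) is the loss of cell junctions and the gain of a motile, spindle-shaped state, and MET is the reverse. ZEB1 is a repressor that binds E-box sequences and shuts down epithelial genes such as CDH1, which encodes E-cadherin. OVOL1 and OVOL2 are zinc-finger factors that repress ZEB1 and favour the epithelial state. Mesenchymal cells also make cytokines, matrix and other proteins that do not define the state, and inflammatory cytokines such as interleukin 1 are known to be induced by NF-kappaB and AP-1 factors.

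The lines carried the factor in their name. OVOL1 was 0.0238 FPKM in PC3-EMT14 and 11.3 FPKM in the OVOL1 line, and OVOL2 was 0.370 FPKM in PC3-EMT14 and 831 FPKM in the OVOL2 line, against 4.25 FPKM of OVOL1 and 9.91 FPKM of OVOL2 in PC3-Epi. The name "mesenchymal" was checked on marker genes. The summed level of 14 mesenchymal markers was 411 FPKM in PC3-EMT14, 294 in the OVOL1 line, 169 in the OVOL2 line and 126 in PC3-Epi. VIM made up 270.5 FPKM of the first sum, and single markers did not all follow it: FN1 had a PC3-Epi ratio of 0.918, SNAI1 was at 1.77, and SPARC was at 1.16 with OVOL1. The summed level of 10 epithelial markers was 1184 FPKM in PC3-EMT14, 1318 in the OVOL1 line, 1903 in the OVOL2 line and 2091 in PC3-Epi. KRT19 at 670.8 FPKM and CLDN4 at 271.3 FPKM made up most of the PC3-EMT14 sum. KRT19 had a ratio of 0.926 with OVOL1, and CLDN4 had a PC3-Epi ratio of 0.781. RAB25 was 24.2 FPKM in PC3-Epi, 0.109 with OVOL1 and 0.122 with OVOL2. GRHL2 was 15.0, 0.556 and 0.544 FPKM. CDH1 was at ratios of 45.9 in PC3-Epi, 15.1 with OVOL1 and 36.7 with OVOL2. None of the 23 genes is on the mesenchymal marker list, so the word here means only that they were higher in PC3-EMT14 than in PC3-Epi. The prostate markers KLK2 and KLK3 were listed at 0 in all lines. In bulk RNA, fewer cells with a transcript and less transcript per cell cannot be told apart.

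Of 10932 genes of at least 2 FPKM in PC3-EMT14, 291 (2.66%) had a PC3-Epi ratio of at most 0.25, and 23 of those 291 (7.9%) had both OVOL ratios between 0.8 and 1/0.8. Among all 10932 genes 67.1% lay in that band with both factors, 81.9% with OVOL1 and 71.9% with OVOL2. Among the 291 genes only 21.3% lay in it with OVOL1 and 14.4% with OVOL2. A ratio of at most 0.5 was seen in 28.9% of the 291 genes with OVOL1 and in 52.2% with OVOL2, against 1.253% and 2.55% of all 10932 genes. The 291 include microRNA and small nucleolar RNA entries with extreme ratios, and these are counted in the shares. SNORD29, at 2415 FPKM in PC3-EMT14, had ratios of 4.2e-05 with OVOL1 and 4.3e-05 with OVOL2. Some such entries were higher with 1 factor, as SNORD62A was at 22.2 with OVOL1. None of the 23 genes is a microRNA or small nucleolar RNA entry. The median ratio of the 291 genes was 0.642 with OVOL1 and 0.484 with OVOL2. Of the genes at a ratio above 0.5 with both factors, 7 were at a ratio of at least 2 with either. That count leaves out entries raised by 1 factor and low with the other, such as MIR100 at 28.1 with OVOL1 and 0.456 with OVOL2. The medians of the 23 genes were 0.927 and 0.956, and those of all 10932 genes were 0.996 and 0.964. VIM, the mesenchymal intermediate filament, shows the contrast: its ratio was 0.157 in PC3-Epi, 0.693 with OVOL1 and 0.294 with OVOL2. ZEB1 had ratios of 0.0299, 0.578 and 0.251.

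**Figure D1:**
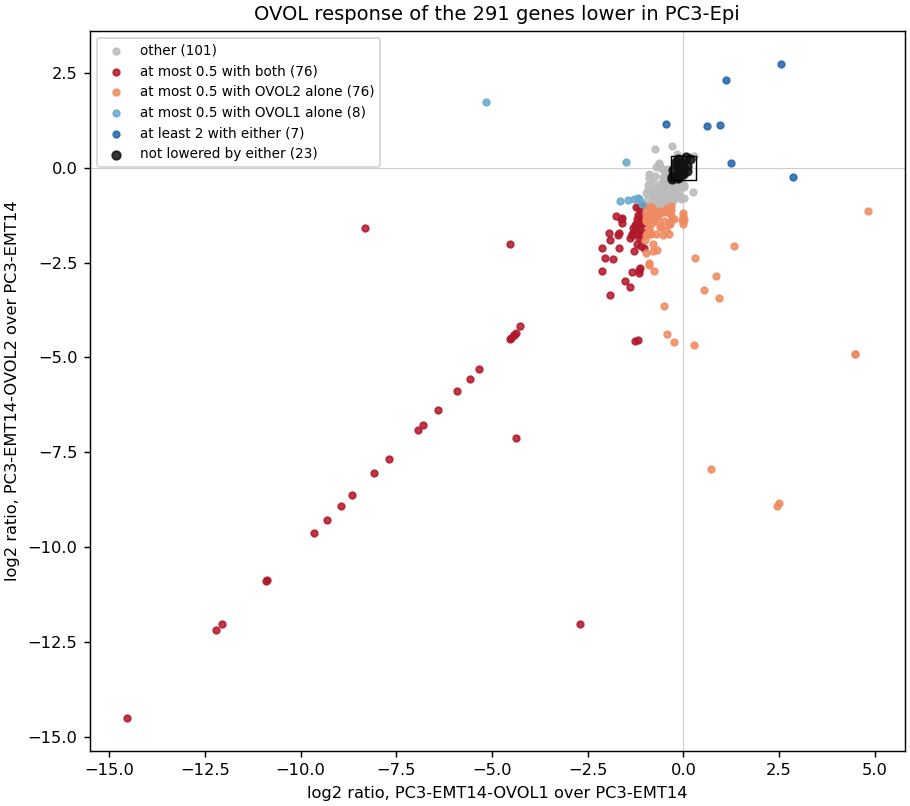
Each point is 1 of the 291 genes lower in PC3-Epi, with the log2 ratio of the OVOL1 line to PC3-EMT14 on the x axis and that of the OVOL2 line on the y axis. The 23 selected genes (black) fill the box that stands for ratios of 0.8 to 1/0.8, while 76 genes were at a ratio of at most 0.5 with both factors and 76 with OVOL2 alone. Points outside the box include microRNA and small nucleolar RNA entries.

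Levels differed widely within the set. The highest was 733 FPKM and the lowest 2.06 FPKM in PC3-EMT14, with a median of 7.48 FPKM. IL1B alone made up 60.3% of the summed 1215 FPKM. In PC3-Epi 12 of the 23 genes were under 1 FPKM and 4 were still at 10 FPKM or more. The PC3-Epi ratio had a median of 0.166 in the set and 0.116 over the 291 genes. Of the 23 genes, 5 were at least 10 times lower in PC3-Epi: CSF3, IL1B, PANX2, SNCB and DYNC1I1. Inside the OVOL band 19 of 23 ratios were under 1 with OVOL1 and 14 of 23 with OVOL2, where 50.9% and 58.6% of all 10932 genes were. Those shares also cover genes outside the band, so the sets are unlike. No share of all genes was computed for both ratios together, so the counts that follow only describe the 23 genes. Both ratios were under 1 for 13 genes and over 1 for 3 genes, which were IL1B, CSF3 and CSPG4. KCNAB2 was over 1 with OVOL1 only and 6 genes with OVOL2 only.

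**Figure D2:**
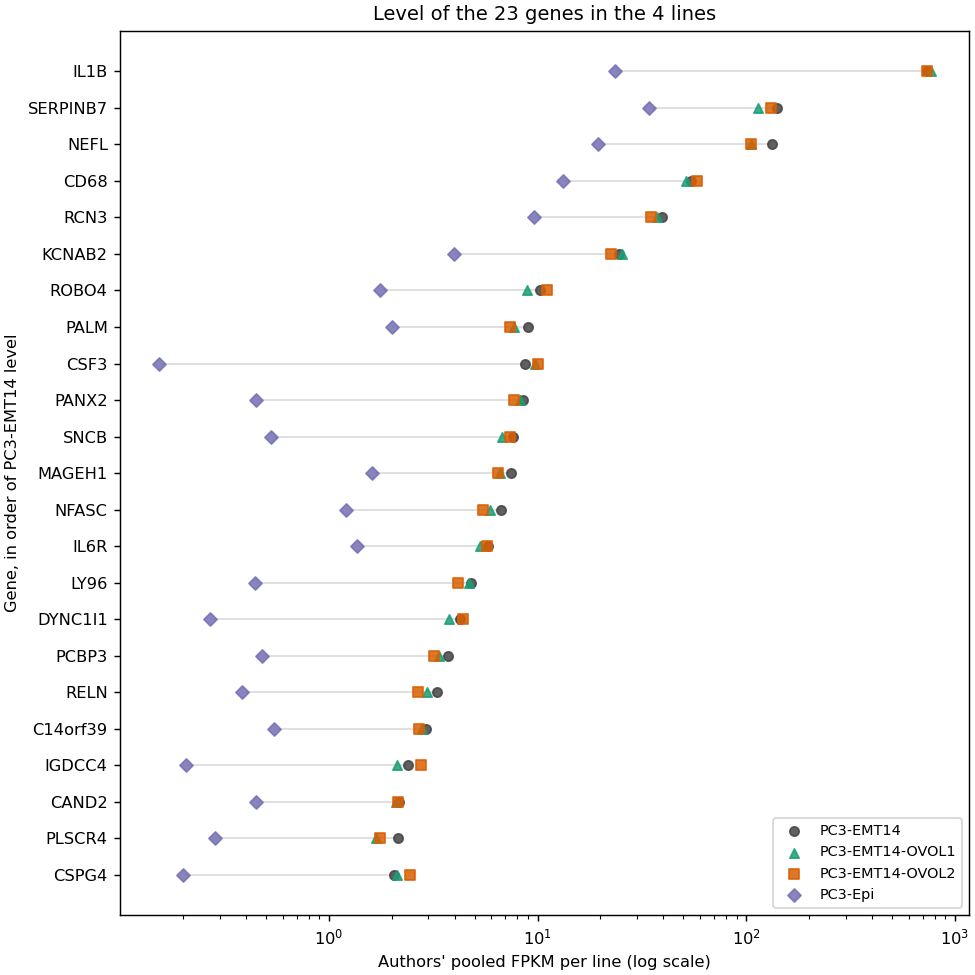
Pooled FPKM (x axis, log scale) of the 23 genes, ordered by their PC3-EMT14 level, with 1 point per line, PC3-EMT14 as in the PC3-Epi table. PC3-EMT14 and both OVOL lines lie close together for each gene, and PC3-Epi lies to their left, from 34.2 FPKM for SERPINB7 down to 0.153 FPKM for CSF3.

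The genes were grouped by known role after their values were seen. Unless a table is named, the PC3-EMT14 level is that of the PC3-Epi table, while each OVOL ratio uses the slightly lower PC3-EMT14 value of its own table, so the direction with OVOL is read from the ratio. The first group holds 5 inflammatory and lysosomal genes, with OVOL1 ratios of 0.945 to 1.14 and OVOL2 ratios of 0.892 to 1.18. IL1B (hg19 chr2:113587337-113594356) encodes interleukin 1 beta, a secreted inflammatory cytokine made as a precursor. Its level was 733 FPKM in PC3-EMT14 against 23.5 FPKM in PC3-Epi, which is 31.1 times lower. In the OVOL1 table IL1B was 718 FPKM in PC3-EMT14 and 765 FPKM in the OVOL1 line, a ratio of 1.07. In the OVOL2 table it was 710 FPKM in PC3-EMT14 and 738 FPKM in the OVOL2 line, a ratio of 1.04. IL1B ranked at place 58 of all entries in PC3-EMT14.

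CSF3 (hg19 chr17:38171614-38174066) encodes granulocyte colony-stimulating factor. Its level was 8.75 FPKM in PC3-EMT14 against 0.153 FPKM in PC3-Epi, a ratio of 0.0287 and the lowest of the set. The added 0.1 FPKM makes the ratio of so low a value less extreme. With OVOL1 it was 9.74 FPKM against 8.56 FPKM, and with OVOL2 10.02 FPKM against 8.47 FPKM. The ratios of 1.14 and 1.18 put CSF3 above PC3-EMT14 in both OVOL lines, further from PC3-Epi.

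IL6R (hg19 chr1:154377669-154440188) encodes the ligand-binding chain of the interleukin 6 receptor. It was 5.76 FPKM in PC3-EMT14 against 1.36 FPKM in PC3-Epi, 5.33 FPKM with OVOL1 (ratio 0.945) and 5.74 FPKM with OVOL2 (ratio 1.03). LY96 (hg19 chr8:74903564-74941307) encodes MD-2, the protein that holds lipopolysaccharide on the receptor TLR4. It was 4.81 FPKM in PC3-EMT14, 0.441 FPKM in PC3-Epi, 4.69 FPKM with OVOL1 (ratio 0.994) and 4.16 FPKM with OVOL2 (ratio 0.892).

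CD68 (hg19 chr17:7482805-7485429) encodes a lysosomal glycoprotein that is abundant in macrophages. It was 54.1 FPKM in PC3-EMT14, 13.3 FPKM in PC3-Epi, 51.2 FPKM with OVOL1 (ratio 0.968) and 57.8 FPKM with OVOL2 (ratio 1.10). PC3-EMT14 arose from a co-culture of PC3-Epi with macrophages, and the study passaged the cells repeatedly, with macrophages alone in parallel, to lose the macrophages. Of 19 macrophage entries, which include 6 entries of AIF1, CD68 was the 1 entry at or above 1 FPKM in any line. Without CD68 the 18 others summed to 0.483 FPKM in PC3-EMT14, 0.490 in PC3-Epi, 0.577 with OVOL1 and 0.657 with OVOL2. PTPRC, the common leukocyte antigen, was 0.0161 FPKM and CD14 0.0861 FPKM in PC3-EMT14, and the complement genes C1QA and C1QB were listed at 0 in all lines.

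The second group holds 6 genes best known from nerve cells and axons, with OVOL1 ratios of 0.815 to 0.913 and OVOL2 ratios of 0.824 to 1.07. NEFL (hg19 chr8:24808469-24814131), the light chain of neurofilaments, was the third highest gene of the set. It was 132 FPKM in PC3-EMT14 against 19.4 FPKM in PC3-Epi. With OVOL1 it was 106 FPKM and with OVOL2 also 106 FPKM, ratios of 0.815 and 0.824 that lie next to the lower bound of the rule.

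SNCB (hg19 chr5:176047210-176057557), beta-synuclein, was 7.66 FPKM in PC3-EMT14, 0.526 FPKM in PC3-Epi, 6.76 FPKM with OVOL1 (ratio 0.903) and 7.35 FPKM with OVOL2 (ratio 0.991). DYNC1I1 (hg19 chr7:95401818-95727736), an intermediate chain of the motor cytoplasmic dynein, was 4.25 FPKM in PC3-EMT14, 0.268 FPKM in PC3-Epi, 3.78 FPKM with OVOL1 (ratio 0.910) and 4.41 FPKM with OVOL2 (ratio 1.07). RELN (hg19 chr7:103112231-103629963), the secreted guidance protein reelin, was 3.31 FPKM in PC3-EMT14, 0.383 FPKM in PC3-Epi, 2.95 FPKM with OVOL1 (ratio 0.913) and 2.68 FPKM with OVOL2 (ratio 0.838). All 3 were under 1 FPKM in PC3-Epi, and DYNC1I1 is the 1 gene of this group above PC3-EMT14 in an OVOL line.

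NFASC (hg19 chr1:204797782-204991950), the adhesion protein neurofascin, was 6.72 FPKM in PC3-EMT14, 1.20 FPKM in PC3-Epi, 5.90 FPKM with OVOL1 (ratio 0.899) and 5.46 FPKM with OVOL2 (ratio 0.842). PALM (hg19 chr19:708953-748330), the lipid-anchored membrane protein paralemmin, was 8.95 FPKM in PC3-EMT14, 2.01 FPKM in PC3-Epi, 7.73 FPKM with OVOL1 (ratio 0.884) and 7.35 FPKM with OVOL2 (ratio 0.850). Both were slightly lower in both OVOL lines, at ratios of 0.842 to 0.899.

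The third group holds 6 channel, receptor and membrane genes, with OVOL1 ratios of 0.812 to 1.06 and OVOL2 ratios of 0.852 to 1.22. PANX2 (hg19 chr22:50609160-50618724), a channel-forming pannexin, was 8.49 FPKM in PC3-EMT14 against 0.449 FPKM in PC3-Epi, 15.6 times lower, and 8.25 FPKM with OVOL1 (ratio 0.994) and 7.69 FPKM with OVOL2 (ratio 0.936). KCNAB2, a beta subunit of voltage-gated potassium channels, was 24.5 FPKM in PC3-EMT14 against 3.98 FPKM in PC3-Epi, and 25.4 FPKM with OVOL1 (ratio 1.06) and 22.4 FPKM with OVOL2 (ratio 0.943). The tables give KCNAB2 and its neighbour NPHP4 the same locus (hg19 chr1:5922870-6161253), which starts before the annotated KCNAB2 gene. NPHP4 was 4.96 FPKM in PC3-EMT14 against 5.14 FPKM in PC3-Epi, so the lower level was not seen for it.

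ROBO4 (hg19 chr11:124754114-124767831), a roundabout receptor of endothelial cells, was 10.3 FPKM in PC3-EMT14, 1.75 FPKM in PC3-Epi, 8.87 FPKM with OVOL1 (ratio 0.883) and 11.1 FPKM with OVOL2 (ratio 1.114). IGDCC4 (hg19 chr15:65673825-65715410), a surface protein of the immunoglobulin superfamily, was 2.40 FPKM in PC3-EMT14, 0.207 FPKM in PC3-Epi, 2.11 FPKM with OVOL1 (ratio 0.903) and 2.76 FPKM with OVOL2 (ratio 1.18). Both were below PC3-EMT14 with OVOL1 and above it with OVOL2.

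CSPG4 (hg19 chr15:75966663-76005189), the proteoglycan NG2 of pericytes and melanoma cells, was 2.06 FPKM in PC3-EMT14, 0.20 FPKM in PC3-Epi, 2.11 FPKM with OVOL1 (ratio 1.05) and 2.45 FPKM with OVOL2 (ratio 1.22). Its OVOL2 ratio of 1.22 was the highest of the set. PLSCR4 (hg19 chr3:145910124-145968966), a phospholipid scramblase, was 2.15 FPKM in PC3-EMT14, 0.285 FPKM in PC3-Epi, 1.69 FPKM with OVOL1 (ratio 0.812) and 1.76 FPKM with OVOL2 (ratio 0.852). Its OVOL1 ratio of 0.812 was the lowest of the set.

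The last group holds 6 genes of other roles, with OVOL1 ratios of 0.834 to 0.986 and OVOL2 ratios of 0.889 to 1.02. SERPINB7 (hg19 chr18:61420277-61472604), an intracellular inhibitor of the serine protease family, was 140 FPKM in PC3-EMT14, 34.2 FPKM in PC3-Epi, 114 FPKM with OVOL1 (ratio 0.834) and 131 FPKM with OVOL2 (ratio 0.967). RCN3 (hg19 chr19:50030875-50046890), a calcium-binding protein of the endoplasmic reticulum, was 39.6 FPKM in PC3-EMT14, 9.57 FPKM in PC3-Epi, 37.2 FPKM with OVOL1 (ratio 0.958) and 35.0 FPKM with OVOL2 (ratio 0.912). Both genes lie close to the PC3-Epi bound of the rule, at ratios of 0.245 and 0.243.

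MAGEH1 (hg19 chrX:55478538-55479999), of the MAGE family, was 7.48 FPKM in PC3-EMT14, 1.60 FPKM in PC3-Epi, 6.63 FPKM with OVOL1 (ratio 0.907) and 6.43 FPKM with OVOL2 (ratio 0.889). PCBP3 (hg19 chr21:47269875-47362368), a poly(rC)-binding protein, was 3.71 FPKM in PC3-EMT14, 0.477 FPKM in PC3-Epi, 3.36 FPKM with OVOL1 (ratio 0.927) and 3.19 FPKM with OVOL2 (ratio 0.889). C14orf39 (hg19 chr14:60902674-60952764), a protein of the meiotic synaptonemal complex, was 2.92 FPKM in PC3-EMT14, 0.548 FPKM in PC3-Epi, 2.81 FPKM with OVOL1 (ratio 0.981) and 2.71 FPKM with OVOL2 (ratio 0.956). CAND2 (hg19 chr3:12838171-12876313), a cullin-associated protein, was 2.16 FPKM in PC3-EMT14, 0.447 FPKM in PC3-Epi, 2.09 FPKM with OVOL1 (ratio 0.986) and 2.14 FPKM with OVOL2 (ratio 1.02). The ratios of CAND2 and C14orf39 lay between 0.956 and 1.02 in both OVOL lines.

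Promoter sequences of the RefSeq table (GRCh38.p14, a later build than the hg19 of the expression tables) were found for 16 of the 23 genes, with 23 start sites. Those of PANX2, NEFL, MAGEH1, PCBP3, LY96, CSF3 and PALM were not used here. The 250 bases before each start were searched on both strands for CACCTG, the E-box read by ZEB and Snail factors. They were also searched for CCGTTA, a core of OVOL sites, for the longer OVOL2 consensus of the study, and for TGANTCA. The last pattern takes in the AP-1 site, TGA(C/G)TCA, but allows any middle base. The sequences below are shown because they belong to the most abundant gene and to genes with an E-box or an AP-1 match. Each reads 5′ to 3′ on the strand of its gene, and capitals mark the motif on either strand. IL1B (chr2:112836780-112837029, minus strand) held none of these motifs. IL6R (chr1:154405093-154405342, plus strand) and CSPG4 (chr15:75712849-75713098, minus strand) held an E-box, 127 and 96 bases before the start. The second KCNAB2 start (chr1:6026083-6026332, plus strand) held 2 E-boxes. CD68 (chr17:7579388-7579637, plus strand) held an AP-1 site, TGAGTCA, 100 bases before the start. The second SERPINB7 start (chr18:63775168-63775417, plus strand) held 2 matches to TGANTCA. They were TGATTCA at 154 bases and the AP-1 site TGAGTCA at 39 bases.
IL1B: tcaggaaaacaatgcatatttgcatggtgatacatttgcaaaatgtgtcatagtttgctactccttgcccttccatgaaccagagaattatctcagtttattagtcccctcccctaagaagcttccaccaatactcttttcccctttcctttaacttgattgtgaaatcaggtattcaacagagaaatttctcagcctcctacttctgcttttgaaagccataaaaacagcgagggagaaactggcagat
IL6R: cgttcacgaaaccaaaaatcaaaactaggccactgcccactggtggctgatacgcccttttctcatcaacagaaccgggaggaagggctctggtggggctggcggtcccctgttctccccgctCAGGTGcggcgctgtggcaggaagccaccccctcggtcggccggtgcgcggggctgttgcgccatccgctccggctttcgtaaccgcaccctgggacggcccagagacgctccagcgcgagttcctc
CSPG4: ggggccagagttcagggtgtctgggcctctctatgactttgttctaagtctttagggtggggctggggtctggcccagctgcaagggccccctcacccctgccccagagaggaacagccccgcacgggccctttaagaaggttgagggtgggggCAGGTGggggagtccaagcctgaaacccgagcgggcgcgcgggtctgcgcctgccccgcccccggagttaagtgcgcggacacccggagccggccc
KCNAB2: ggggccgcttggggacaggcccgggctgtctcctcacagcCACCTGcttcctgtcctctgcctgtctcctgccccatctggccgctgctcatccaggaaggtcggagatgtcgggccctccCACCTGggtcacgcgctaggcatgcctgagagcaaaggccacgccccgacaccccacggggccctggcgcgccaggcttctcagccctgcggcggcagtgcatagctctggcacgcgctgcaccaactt
CD68: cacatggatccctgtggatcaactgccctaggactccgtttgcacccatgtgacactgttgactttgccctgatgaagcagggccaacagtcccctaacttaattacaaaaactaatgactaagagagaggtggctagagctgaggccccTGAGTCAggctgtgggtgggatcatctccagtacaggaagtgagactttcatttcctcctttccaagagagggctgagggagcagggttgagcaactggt
SERPINB7: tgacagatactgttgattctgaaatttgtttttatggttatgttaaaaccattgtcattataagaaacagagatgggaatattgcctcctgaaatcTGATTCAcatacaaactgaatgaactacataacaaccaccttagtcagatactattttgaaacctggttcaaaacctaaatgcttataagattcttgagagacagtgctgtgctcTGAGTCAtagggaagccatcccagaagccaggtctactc

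The E-box was in 6 of the 23 promoters, from 5 genes (KCNAB2, IL6R, NFASC, PLSCR4 and CSPG4). It was in 17.5% of the 35116 promoters of the table and in 15.05% of those of genes of at least 2 FPKM in PC3-EMT14. The pattern TGANTCA was in 3 of the 23 promoters, from CD68 and SERPINB7, against 6.57% of all promoters and 4.43% of those of genes at that level. Neither CCGTTA (2.45% of all promoters and 3.19% at that level) nor the OVOL2 consensus (0.877% and 0.38%) was found in the 23 windows. Several promoters belong to the same gene, and fewer than 80% of the genes had a sequence, so no share over the set was read. A match is not a binding site, and a window without a match says nothing of the factor.

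The 2 OVOL lines were also set against each other in a deposited table of their own, which re-estimates the same libraries. The ratio of OVOL2 to OVOL1 had a median of 1.01 over the 23 genes, 0.847 over the 291 genes and 0.966 over all 10932 genes. It lay outside 0.8 to 1/0.8 for 2 of the 23 genes, IGDCC4 at 1.30 and ROBO4 at 1.26. Among the 291 genes 55.7% lay outside and among all genes 15.2%. Both OVOL ratios of these genes were bounded by the rule, so this count is a description of the selection. The lowest value was 0.889 for KCNAB2.

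The ligands, receptors and relatives of the 23 genes were set beside them, as a list of 51 genes chosen after their values were seen. Of the 51, 29 reached 2 FPKM in PC3-EMT14. Of those 29, 4 had a PC3-Epi ratio of at most 0.25, where 2.66% of all 10932 genes did. Both OVOL ratios lay between 0.8 and 1/0.8 for 15 of the 29, and for 67.1% of all 10932 genes. A relative that met both conditions would have been in the set by the rule.

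The 4 relatives with a low PC3-Epi ratio had to lie outside the band with at least 1 factor, by the rule, and their values are given as a description. TLR4, the receptor that LY96 serves, was 2.59 FPKM in PC3-EMT14 against 0.247 FPKM in PC3-Epi. Its ratio was 0.690 with OVOL1 and 0.443 with OVOL2, where LY96 was at 0.994 and 0.892. VLDLR, a receptor for RELN, was 4.78 FPKM in PC3-EMT14 against 0.433 FPKM in PC3-Epi, with ratios of 0.511 and 0.390 against 0.913 and 0.838 for RELN.

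IL1F7, which encodes the anti-inflammatory cytokine interleukin 37 and lies near IL1B, was 6.78 FPKM in PC3-EMT14 against 0.155 FPKM in PC3-Epi. Its ratio was 2.15 with OVOL1 and 5.01 with OVOL2, against 1.07 and 1.04 for IL1B. SERPINB2, in the same gene cluster as SERPINB7, was 11.3 FPKM in PC3-EMT14 against 0.959 FPKM in PC3-Epi, with ratios of 0.734 and 2.22.

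Several partners of the inflammatory genes were higher in the OVOL lines. IL6, the ligand of IL6R, was 1.32 FPKM in PC3-EMT14 and 8.22 FPKM with OVOL1, and 1.31 against 17.9 FPKM with OVOL2. IL6ST, the signalling chain that works with IL6R, had ratios of 0.814 and 0.832. CSF2, a sister factor of CSF3, had ratios of 5.03 and 8.89, and IL1RN, the antagonist of the IL1 receptor, was at 1.86 and 5.03 from a level of 0.103 FPKM. IL1RAP, the accessory chain of that receptor, was at 0.853 and 0.662.

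The wider chemokine and cytokine list was matched by gene symbol and held 146 entries, of which 38 reached 2 FPKM in PC3-EMT14. It therefore also holds interleukin receptors, such as IL6R, IL4R, IL7R and IL17RA, and its values are not those of cytokines alone. Of these 38, 12 had a ratio of at least 2 with OVOL1 and 13 with OVOL2, where 0.805% and 1.93% of all 10932 genes did. At a ratio of at most 0.5 there were 0 with OVOL1 and 1 (IL33) with OVOL2. The median ratio of the 38 was 1.22 with OVOL1 and 1.42 with OVOL2. Of the 38, 6 had a low PC3-Epi ratio, and 3 of the 6 were in the set: IL1B, CSF3 and IL6R. The other 3 were CCL26 at 1.54 and 2.17, IL1F7, and IL33 at 0.707 and 0.380. Summed over the 15 gene family lists examined, 38 entries were among the 291 genes and 4 among the 23 genes. Only 2 lists held any of the 23: this list with 3, and the potassium channel list with KCNAB2. The potassium channel list held 9 genes of at least 2 FPKM in PC3-EMT14, and 2 of them were among the 291. The share of all 10932 genes on the 15 lists was not computed, so these counts only describe the lists.

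Of 20 listed paralogs of at least 2 FPKM in PC3-EMT14, 9 had a PC3-Epi ratio of 0.8 to 1/0.8, 6 a lower and 5 a higher one. These paralogs were chosen after the values were seen. The share of all genes in that PC3-Epi band was not computed, so the counts only describe the list. PANX1 had a PC3-Epi ratio of 0.918, RCN1 1.02, RCN2 1.06, CAND1 1.03, PCBP1 1.03 and PLSCR3 1.01. PLSCR1 was at 2.73, ROBO1 at 1.60 and SERPINB3 at 6.34, and SNCG was at 0.50 and SERPINB8 at 0.417. The filament partners of NEFL were all under 1 FPKM, with NEFM at 0.113 FPKM, NEFH at 0.0140 FPKM and INA at 0.0149 FPKM in PC3-EMT14. MAGED2 and MAGED1, relatives of MAGEH1, had PC3-Epi ratios of 0.295 and 0.404.

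**Figure D3:**
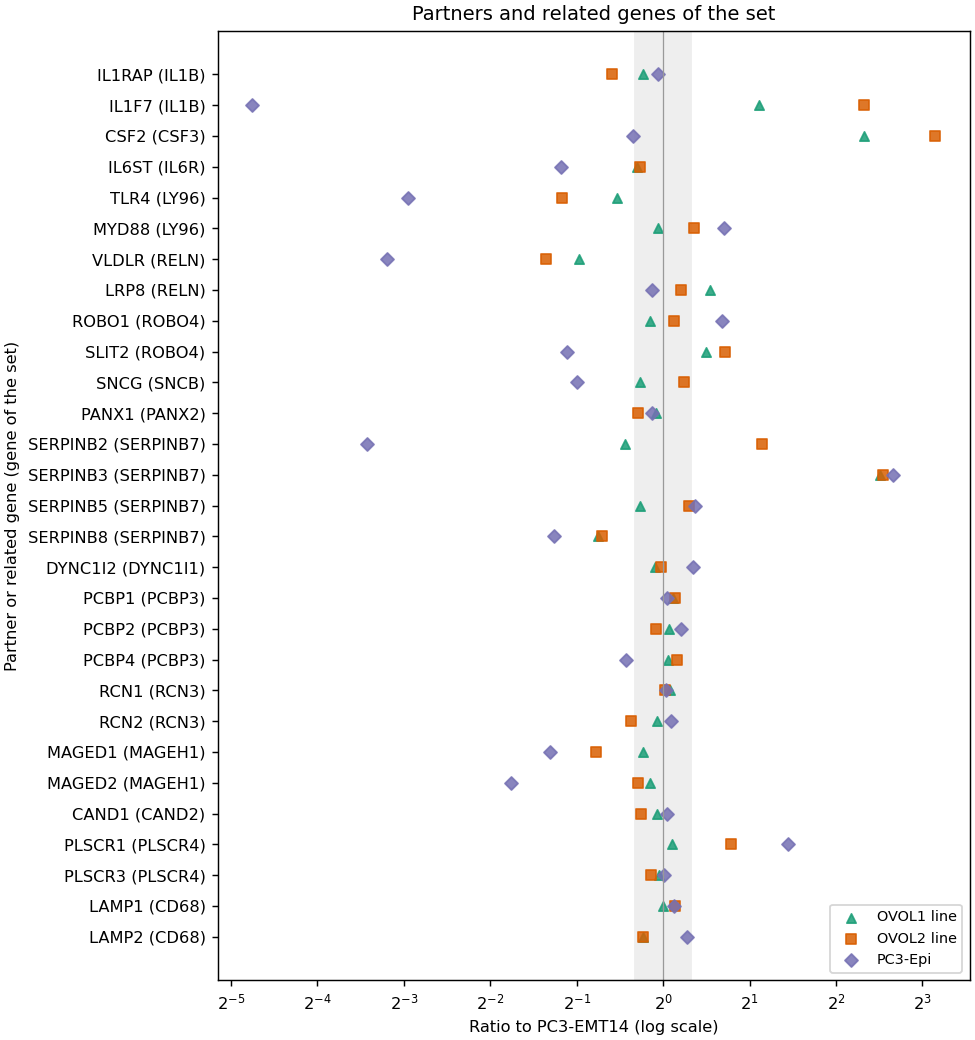
Ratio to PC3-EMT14 (x axis, log scale) of the 29 partner or related genes of at least 2 FPKM, with the gene of the set they belong to in parentheses. The grey band stands for 0.8 to 1/0.8: TLR4 and VLDLR lie left of it in the OVOL lines, and CSF2 and IL1F7 lie right of it.

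Isoform use was a measure that the rule did not use directly, though it comes from the same libraries. The share of each isoform in its gene was compared between lines for genes with 2 or more isoform entries and at least 2 FPKM in both lines. A share differed by at least 20 percentage points with OVOL1 in 0 of 14 genes of the set and in 1.78% of 4382 genes, and with OVOL2 in 0 of 14 and in 3.98% of 4348 genes. Between PC3-EMT14 and PC3-Epi it did in 1 of 4 genes, KCNAB2 at 25.6 points, and in 5.15% of 4272 genes.

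Smaller isoform differences were seen. With OVOL1 the largest were LY96 at 11.8 points, DYNC1I1 at 10.7 and SERPINB7 at 10.6. The difference in SERPINB7 came from 1 isoform that was 45.0 FPKM in PC3-EMT14 and 25.4 FPKM with OVOL1, while the other was 91.9 and 88.8 FPKM. With OVOL2 the largest were PALM at 11.9 points, IL6R at 10.9 and NFASC at 10.2. For IL6R the minor isoform, 0.606 FPKM in PC3-EMT14, was listed at 0 with OVOL2. The same PC3-EMT14 libraries differed between tables by at most 0.299 points, which is an error of re-estimation and not of replication.

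**Figure D4:**
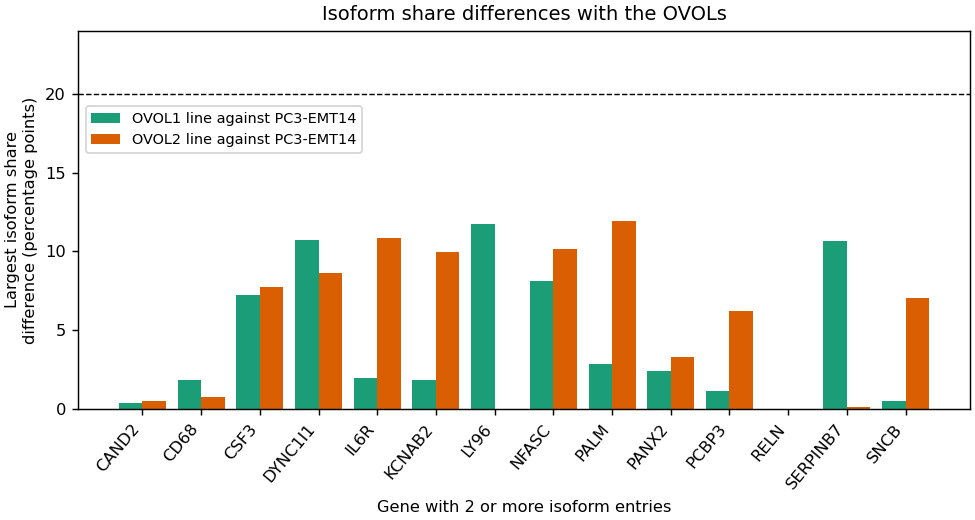
Largest difference of an isoform share (y axis, percentage points) between each OVOL line and PC3-EMT14 for the 14 genes of the set with 2 or more isoforms that could be compared. All bars lie under the dashed line at 20 points, with PALM highest at 11.9.

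The 23 genes were spread over 15 chromosomes, 14 on the plus and 9 on the minus strand. The closest pair, DYNC1I1 and RELN, lay 7.71 Mb apart. For each gene the 10 nearest other genes within 1 Mb of at least 2 FPKM in PC3-EMT14 or PC3-Epi were taken, and the median of their PC3-Epi ratios was computed where there were at least 3. It was at most 0.5 for 0 of 22 genes of the set, against 0.772% of the mesenchymal genes and 0.261% of all expressed genes. The median over the set was 0.988 and over all expressed genes 0.983. The neighbours as a whole were at a similar level in PC3-Epi and PC3-EMT14.

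At least 1 of the nearest genes had a PC3-Epi ratio of at most 0.25 for 6 of the 23 genes and for 16.5% of all expressed genes. PCBP3 lies next to COL6A1 and COL6A2, chains of collagen VI, which were 181 and 260 FPKM in PC3-EMT14 with PC3-Epi ratios of 0.181 and 0.174. Their ratios were 0.717 and 0.622 with OVOL1 and 0.808 and 0.630 with OVOL2, where PCBP3 was at 0.927 and 0.889. CRISPLD1, a neighbour of LY96, had a PC3-Epi ratio of 0.109 and OVOL ratios of 0.613 and 0.637. IL1F7 beside IL1B and SERPINB2 beside SERPINB7 are given above, and the others were entries of small nucleolar RNAs near RCN3 and CSF3.

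**Figure D5:**
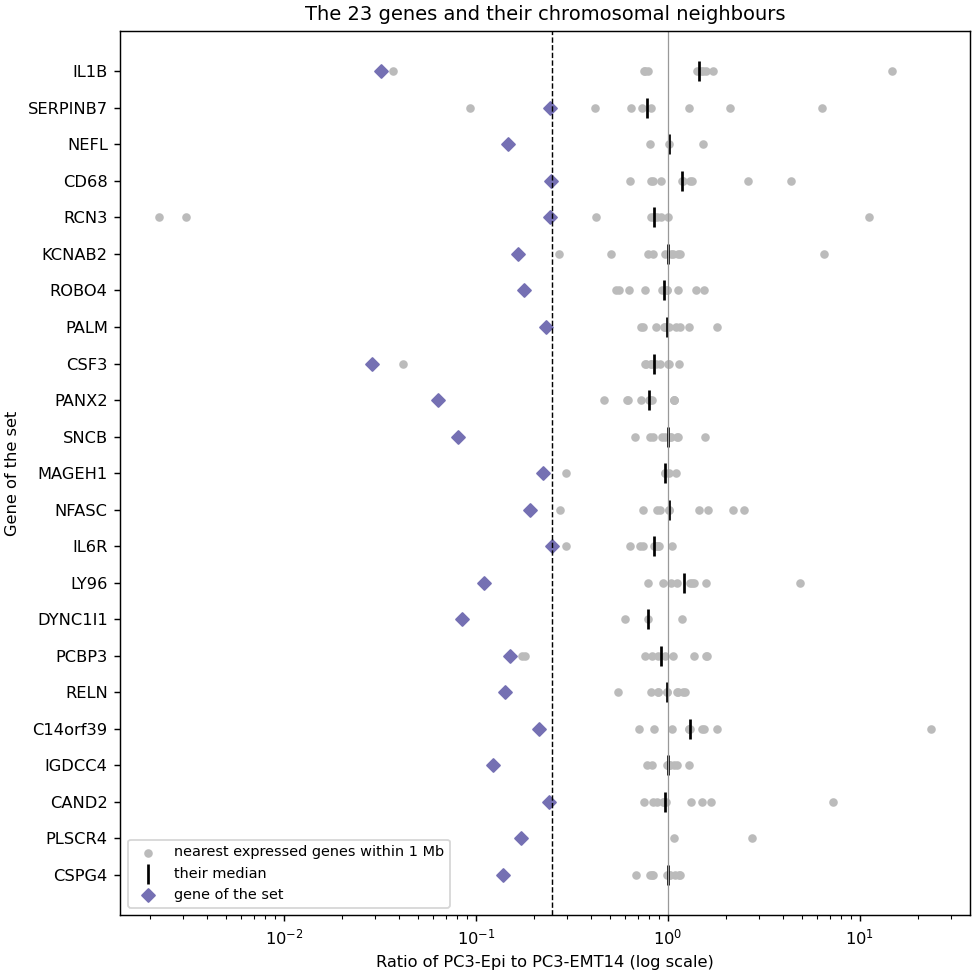
Ratio of PC3-Epi to PC3-EMT14 (x axis, log scale) for each of the 23 genes (diamonds) and its up to 10 nearest expressed genes (grey points), with the median of those neighbours as a black tick. The neighbour medians lie near 1 while the 23 genes lie left of the dashed line at 0.25.

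The bounds of the rule cut through a continuous range. When each table was scaled to a median ratio of 1, IL6R, CSPG4, CD68 and SERPINB7 fell outside the bounds. The genes outside a bound are the nearest of those that met every other bound. Just inside the level bound were CSPG4 at 2.06 FPKM and PLSCR4 at 2.15 FPKM, and just outside were SLC2A13 at 1.86 FPKM and MSLN at 1.78 FPKM. At the PC3-Epi bound IL6R (0.249) and CD68 (0.246) were inside, and OGDHL (0.268) and PREX1 (0.272) outside. At the lower OVOL1 bound PLSCR4 (0.812) and NEFL (0.815) were inside, and SAMD5 (0.794) and ANXA10 (0.777) outside. At the lower OVOL2 bound NEFL (0.824) and RELN (0.838) were inside, and LPIN2 (0.781) and SLC22A17 (0.775) outside. At the upper OVOL2 bound CSPG4 (1.22) and CSF3 (1.18) were inside, and ABCG1 (1.26) and ACE (1.29) outside. At the upper OVOL1 bound CSF3 (1.14) and IL1B (1.07) were inside, and the small nucleolar RNA entries SNORD16 (2.38) and SNORD116-4 (7.35) outside.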

How the data were processed

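RNA-seq of 10 samples of PC3-derived cells was analysed. The authors aligned paired-end reads to hg19 with TopHat and estimated FPKM with Cuffdiff (upper-quartile normalised, corrected for multiple mapping and sequence bias), pooling the samples of a group. The deposited 4 gene tables and 4 isoform tables hold 1 FPKM value per group, so replicate error and depth are not known. They also hold the authors' log2 fold changes, test statistics, p-values and q-values, which were not used. From the FPKM values, ratios with 0.1 FPKM added were computed within each table over 23170 gene and 37557 isoform entries, with Python 3.11.15, numpy 2.4.6, pandas 2.3.3 and matplotlib 3.10.9. With 1 value per group no test was run: counts and medians are given beside those of all genes of at least 2 FPKM. The ratio, isoform and neighbour calculations were checked on simulated data.

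The 23 genes, lists, role groups and partners were chosen with earlier results of these data known. Strandedness is not given in the sources used here, so overlapping genes such as KCNAB2 and NPHP4 may share reads. The upper OVOL bound, 1/0.8, is 1.25. All 23 genes are named. Gene positions are those of the tables (hg19), checked against GENCODE for GRCh37, and promoters are from RefSeq (GRCh38.p14). The alternatives were other pseudocounts, bounds, scaling, isoform thresholds and windows.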

Additional observations from a re-analysis of the deposited data

How the results depend on the processing

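The number of genes that met the rule depended on its bounds. It was 23 as reported, 12 with a pseudocount of 1 FPKM (10 of them shared with the 23), 14 with a level bound of 5 FPKM, 170 with a PC3-Epi ratio of at most 0.5, 7 with the PC3-Epi bound set lower by the same factor, 10 with OVOL ratios of 0.9 to 1/0.9, and 58 with 0.67 to 1.5. It was 23 without a pseudocount, 23 without failed estimates and 31 with a level bound of 1 FPKM. Rescaling each table to a median ratio of 1 gave 21 genes, of which 19 were shared: IL6R, CSPG4, CD68 and SERPINB7 dropped out, and LPIN2 and SLC22A17 came in. The medians before rescaling were 0.974 in PC3-Epi, 0.996 with OVOL1 and 0.964 with OVOL2. With an isoform share difference of 10 instead of 20 percentage points, 3 of 14 genes were past the bound with OVOL1 and 3 of 14 with OVOL2. At 30 points there were 0 with each. The shares of all genes past 10 and 30 points were not computed, so these counts have no background beside them. Neighbour windows of 0.5 and 2 Mb gave 0 genes, as the 1 Mb window did. No paired analysis was possible because the deposited tables hold 1 pooled value per group, and leaving out single replicates was not run for the same reason. How far the levels of low genes such as CSPG4 depend on depth was not tested, since no counts are given.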
